A study of Caenorhabditis elegans with 6 samples.

Results

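The genes described here encode the core of TOR and AMPK growth signalling in Caenorhabditis elegans, namely let-363, daf-15, rict-1, rheb-1, raga-1, ragc-1, rsks-1, aak-1 and aak-2. They were taken by gene name from a deposited table in which 22416 genes have read counts, and all 9 were found and had enough reads to be tested. RNA came from pools of whole worms of the strain CL2006 (genotype unc-54p::Abeta), in which a muscle promoter drives the human amyloid-β peptide. Control and treated worms alike carry this transgene, and the amount of the peptide in each group is not known from these data. Worms were raised at 20 °C on EV bacteria to the L4 larval stage. From then on, 3 pools stayed on EV, the empty-vector control, and 3 were fed nol-56 RNAi bacteria, until all were collected on day 6 of adulthood. The product of nol-56 belongs to the nucleolar particles that guide methylation of ribosomal RNA, and RNAi by feeding reaches many tissues at once. The stated interest of the study is how a nucleolar mechanism affects protein homeostasis through TGF-β and ERK signalling.

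TOR is a protein kinase that couples nutrients to growth. It works in a complex with Raptor (TORC1), which drives ribosome production and protein synthesis and holds back autophagy, and in a complex with Rictor (TORC2), which acts on fat storage and growth through AGC kinases. Rheb and the Rag GTPases switch TORC1 on at the lysosome, and AMPK, a kinase that senses low cellular energy, restrains anabolic growth. In C. elegans, lower TOR or S6 kinase activity and higher AMPK activity are both known to extend lifespan.

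Total gene counts per library ranged from 21138955 to 34841215. The nol-56 transcript had 5878 to 9029 reads in the EV control libraries and 339 to 518 in the nol-56 RNAi libraries, a 14.4-fold fall. Levels are given in CPM, counts scaled to a common library total with TMM factors, and fold changes as nol-56 RNAi over EV control. The test was edgeR's quasi-likelihood test over 14677 genes with Benjamini-Hochberg adjustment and a threshold of 0.05. The labels do not state whether the pools were separate cultures, and p-values therefore reflect the spread between pools alone, possibly a technical one.

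Of the 9 genes, 8 fell, or 5 with upper-quartile in place of TMM factors, and 1, aak-2, rose. Over all genes tested, 40.8% were called lower and 47.2% higher. The median log2 fold change of the 9 was −0.38, against 0.16 over all genes. The TOR kinase gene let-363 fell most, 1.73-fold, and the Rictor gene rict-1 least, 1.12-fold. In no gene did the CPM values of the groups overlap, and over all genes the groups were apart with RNAi lower in 40.9% and with RNAi higher in 47.2%. The scaling decides how small changes read: RLE factors moved the median of all genes by −0.14 and upper-quartile factors by 0.25, and with the latter rict-1 (0.08), ragc-1 (0.07) and aak-1 (0.01) turned positive and were no longer called (adjusted p = 0.124, 0.139 and 0.875). The share of calls that were higher was 53.6% with TMM, 49.6% with RLE and 62.4% with upper-quartile factors.

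**Figure D1:**
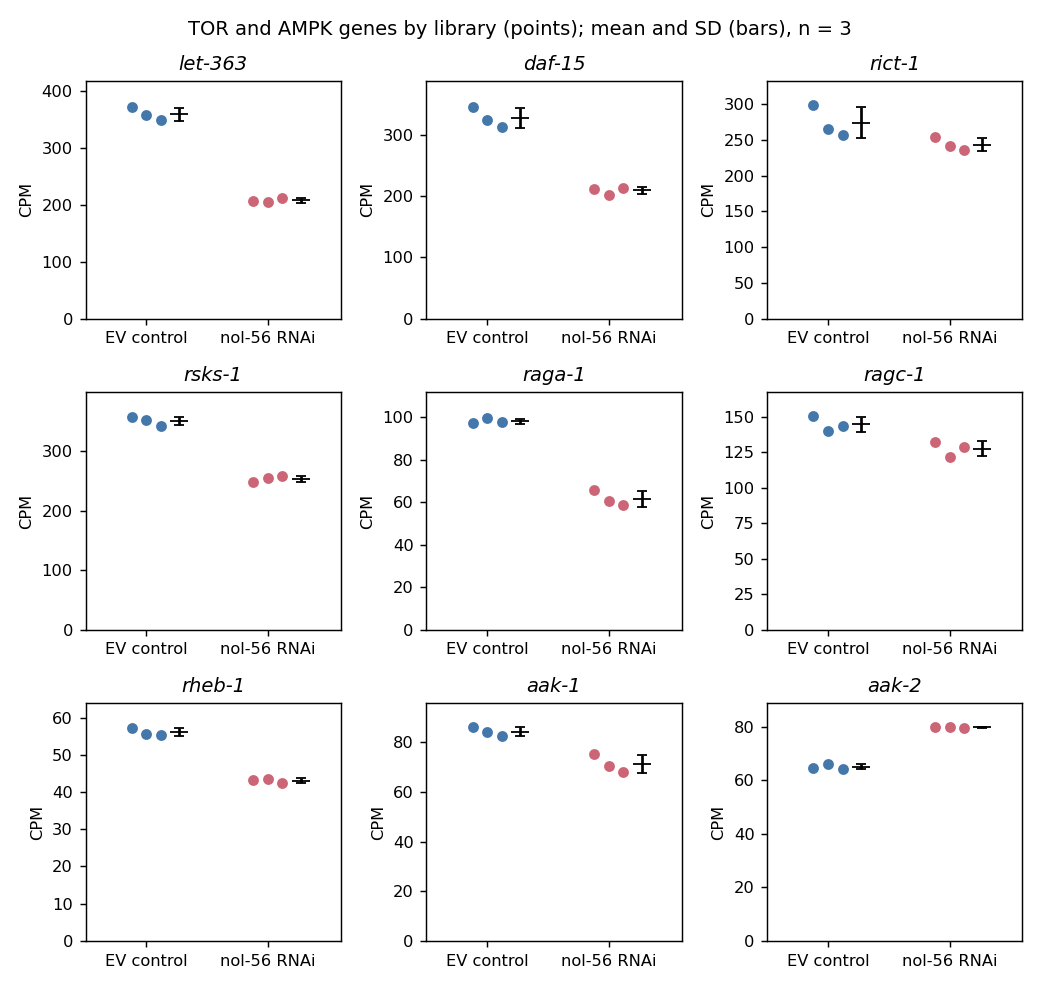
CPM of each gene (vertical axes, from 0) in the 3 EV control and 3 nol-56 RNAi libraries, with points for libraries and bars for the mean and SD. The groups are far apart for let-363, at 349 to 371 against 205 to 212 CPM, and close together for rict-1, at 257 to 299 against 236 to 254 CPM; of the 9, aak-2 alone is higher in the RNAi libraries (TMM scaling).

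let-363 (WBGene00002583) encodes the TOR kinase itself, the catalytic subunit of both complexes. It lies on chromosome I, 5245743 to 5263424, on the plus strand of WBcel235. Its level was 371, 358 and 349 CPM in EV control libraries 1 to 3 and 207, 205 and 212 CPM in nol-56 RNAi libraries 1 to 3. Every RNAi library lay well below every control. The mean level went from 359.5 ± 11.3 to 208 ± 3.75 CPM (SD, n = 3 libraries per group). The log2 change was −0.79 (standard error, SE, 0.04; adjusted p = 3.98e-14, edgeR quasi-likelihood test), which placed let-363 at the 18.2th percentile of the changes of all genes.

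daf-15 (WBGene00000911, chromosome IV, 9386208 to 9394979, plus strand) encodes Raptor, the scaffold that presents substrates to TORC1. It stood at 346, 325 and 313 CPM in the EV control and at 212, 202 and 214 CPM in the RNAi libraries. The groups were separated by a wide gap, with control library 1 the highest of the 6. The log2 change was −0.65 (SE 0.04, adjusted p = 5.50e-12, edgeR). The Raptor gene fell 1.57-fold, against 1.73-fold for the kinase gene.

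rict-1 (WBGene00009245, chromosome II, 13098239 to 13116810, minus strand) encodes Rictor, the subunit that defines TORC2. It stood at 299, 266 and 257 CPM in the EV control and at 254, 241 and 236 CPM in the RNAi libraries. Control library 1 was again the highest, and the lowest control lay just above the highest RNAi library. The mean level went from 274 ± 21.9 to 243.5 ± 9.44 CPM, a log2 change of −0.17 (SE 0.05, adjusted p = 0.00327, edgeR). The call was lost with library totals in place of TMM (−0.07, adjusted p = 0.157) and with only genes above 5 CPM (−0.02, adjusted p = 0.668).

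The genes for the GTPases upstream of TORC1 fell by unequal amounts, and that for RagC turned to 0.07 with upper-quartile factors. raga-1 (WBGene00006414, chromosome II, 11301359 to 11302776, plus strand) encodes RagA, which with RagC brings TORC1 to the lysosome when amino acids are plentiful. It stood at 97.2, 99.5 and 97.6 CPM in the EV control and at 65.7, 60.4 and 58.7 CPM in the RNAi libraries. All RNAi values lay far below the tightly grouped controls, and the log2 change was −0.67 (SE 0.05, adjusted p = 6.08e-12, edgeR).

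ragc-1 (WBGene00012497, chromosome IV, 11603613 to 11604933, minus strand) encodes its partner RagC. It stood at 151, 139.8 and 144 CPM in the EV control and at 132, 122 and 128 CPM in the RNAi libraries. The groups came close without overlapping. The log2 change was −0.18 (SE 0.04, adjusted p = 0.000501, edgeR), and the call was lost with library totals (−0.09, adjusted p = 0.0584) and with only genes above 5 CPM (−0.04, adjusted p = 0.403).

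rheb-1 (WBGene00010038, chromosome III, 9454163 to 9456030, minus strand) encodes Rheb, the GTPase that directly activates TORC1. It stood at 57.3, 55.6 and 55.2 CPM in the EV control and at 43.2, 43.5 and 42.4 CPM in the RNAi libraries. Replicates were tight and the groups clearly apart, with a log2 change of −0.38 (SE 0.05, adjusted p = 1.08e-07, edgeR).

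rsks-1 (WBGene00012929, chromosome III, 11245120 to 11252281, plus strand) encodes the S6 kinase, the TORC1 substrate that acts on ribosomal protein S6 and translation. It stood at 356, 351 and 342 CPM in the EV control and at 248, 254 and 258 CPM in the RNAi libraries. The groups did not come near each other. The mean level went from 349.8 ± 7.07 to 253 ± 4.92 CPM, a log2 change of −0.47 (SE 0.04, adjusted p = 2.80e-10, edgeR).

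The genes for the catalytic α subunits of AMPK moved in opposite directions, although aak-1 stood at 0.01 with upper-quartile factors. aak-1 (WBGene00019801, chromosome III, 8756990 to 8761090, minus strand) stood at 86.0, 84.0 and 82.5 CPM in the EV control and at 75.1, 70.4 and 68.0 CPM in the RNAi libraries. The RNAi values spread more widely than the controls and stayed below them. Its log2 change was −0.24 (SE 0.05, adjusted p = 4.11e-05, edgeR).

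aak-2 (WBGene00020142, chromosome X, 16796087 to 16803398, plus strand) encodes the α subunit through which AMPK is best known to lengthen C. elegans lifespan. It stood at 64.7, 66.1 and 64.4 CPM in the EV control and at 79.9, 79.9 and 79.7 CPM in the RNAi libraries. The RNAi libraries were nearly identical and all above the controls. The log2 change was 0.29 (SE 0.04, adjusted p = 9.49e-07, edgeR). It was positive and called in every alternative run, from 0.16 with RLE factors and with DESeq2 to 0.54 with upper-quartile factors. This rise lay at the 53.0th percentile of changes.

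Relative to the median gene, the log2 change was −0.95 for let-363, −0.83 for raga-1, −0.81 for daf-15, −0.63 for rsks-1, −0.54 for rheb-1, −0.40 for aak-1, −0.34 for ragc-1, −0.33 for rict-1 and 0.14 for aak-2. A scaling factor moves a gene and the median together, so these relative values are nearly the same under every scaling by construction and are no check on the directions. They moved with the set of genes in the median: with only genes above 5 CPM, rict-1 stood at −0.01, ragc-1 at −0.02 and aak-1 at −0.08, and aak-2 at 0.45.

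**Figure D2:**
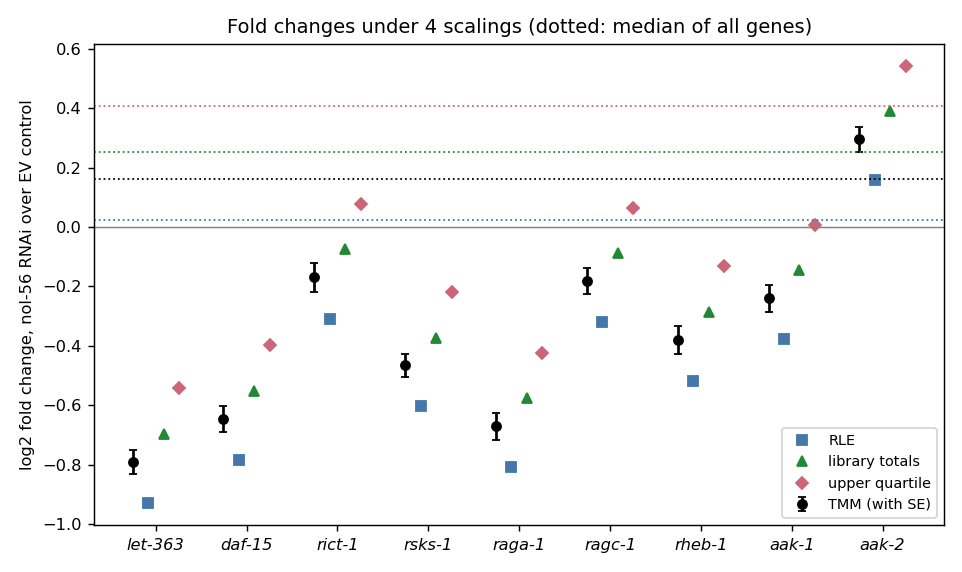
Log2 fold change of each gene (vertical axis) under TMM with its standard error, RLE factors, library totals and upper-quartile factors; dotted lines mark the median of all genes under the scaling of the same colour. The distance of a gene from its dotted line is fixed by construction to be nearly equal under every scaling, and upper-quartile factors lift rict-1, ragc-1 and aak-1 above 0.

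A ratio of reads from a pair of genes within a library is free of the scaling, and 6 such ratios were compared between the groups. In each of the 6 the groups did not overlap. Single genes were apart with RNAi lower in 40.9% and with RNAi higher in 47.2% of all genes tested. The share among other pairs of genes was not computed, so the separation is a description only. The ratios are not independent, since that of daf-15 to rict-1 follows from their ratios to let-363. The exact two-sided permutation test over libraries gave p = 0.1, also after adjustment over the 6 ratios. This is the smallest value that 3 against 3 libraries allow and does not pass the threshold of 0.05. The ratio of aak-1 to aak-2 reads was 1.33, 1.27 and 1.28 in the EV control and 0.939, 0.881 and 0.853 in the RNAi libraries. aak-1 thus had more reads than aak-2 in every control library and fewer in every RNAi library. The difference in log2 ratio was −0.54 with a standard error of 0.05.

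For the genes of the TOR complex subunits, the ratio of daf-15 (Raptor) to rict-1 (Rictor) reads was 1.16, 1.22 and 1.22 in the EV control and 0.835, 0.839 and 0.909 in the RNAi libraries, a log2 difference of −0.48 with a standard error of 0.05. Raptor reads outnumbered Rictor reads in every control and fell short of them in every RNAi library. Per kb of annotated exon, the ratio was 1.02 ± 0.0309 in the EV control and 0.735 ± 0.0356 in the RNAi libraries (SD). Per length the genes were thus about equal in the control. Relative to the kinase gene let-363, the mean of rict-1 was 1.54-fold higher in the RNAi libraries, with a log2 difference of 0.62 (standard error 0.06), and daf-15 was 1.11-fold higher, with a log2 difference of 0.14 (standard error 0.02). The ratio of rsks-1 to let-363 reads was 1.25-fold higher in the RNAi libraries.

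For the Rag pair, the ratio of raga-1 to ragc-1 reads was 0.645, 0.712 and 0.680 in the EV control and 0.497, 0.497 and 0.457 in the RNAi libraries, a log2 difference of −0.49 with a standard error of 0.06. The highest RNAi ratio lay below the lowest control ratio.

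**Figure D3:**
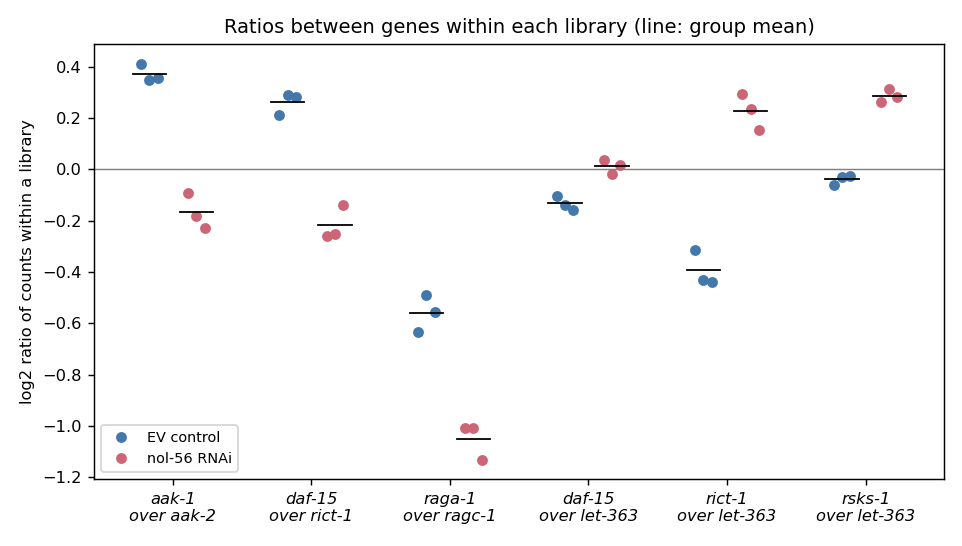
Log2 ratio of read counts between gene pairs (horizontal axis) within each EV control and nol-56 RNAi library, with points for libraries and lines for group means. The 3 ratios on the left are lower and the 3 ratios to let-363 higher in the RNAi libraries, with no overlap of the groups in any pair.

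Levels of different genes can be compared only per length, here as CPM per kb of annotated exon. In the EV control, ragc-1 was highest at 131 ± 4.95 CPM per kb, followed by rsks-1 at 115 ± 2.32 and raga-1 at 77.5 ± 0.991 (SD, n = 3). daf-15 (55.8 ± 2.83) and rict-1 (54.6 ± 4.37) overlapped, and below them came rheb-1 (47.0 ± 0.921), let-363 (42.0 ± 1.32), aak-1 (36.0 ± 0.767) and aak-2 (26.8 ± 0.367). All other neighbours in this order were separated beyond the range of the libraries.

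In the nol-56 RNAi libraries ragc-1 (116 ± 4.86 CPM per kb) and rsks-1 (83.1 ± 1.61) still led. raga-1 (48.6 ± 2.87) and rict-1 (48.5 ± 1.88) now overlapped, as did rheb-1 (36.1 ± 0.502) and daf-15 (35.6 ± 1.08). aak-2 (32.8 ± 0.0483, an SD below its counting error) stood above aak-1 (30.5 ± 1.53). let-363 was the lowest of the 9 at 24.3 ± 0.438 CPM per kb. The summed level of the AMPK catalytic genes was 62.8 ± 0.878 CPM per kb in the EV control and 63.3 ± 1.58 in the RNAi libraries, with overlapping groups under TMM, but the scaling decides the direction of that sum. It went from 65.9 ± 1.76 to 60.3 ± 1.45 with RLE factors, from 60.8 ± 0.266 to 65.4 ± 2.16 with library totals and from 57.6 ± 0.172 to 69.0 ± 1.83 with upper-quartile factors, with groups apart in each case. The share of aak-2 in the sum, which no scaling factor can change, went from 42.6 ± 0.591% to 51.9 ± 1.22%.

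**Figure D4:**
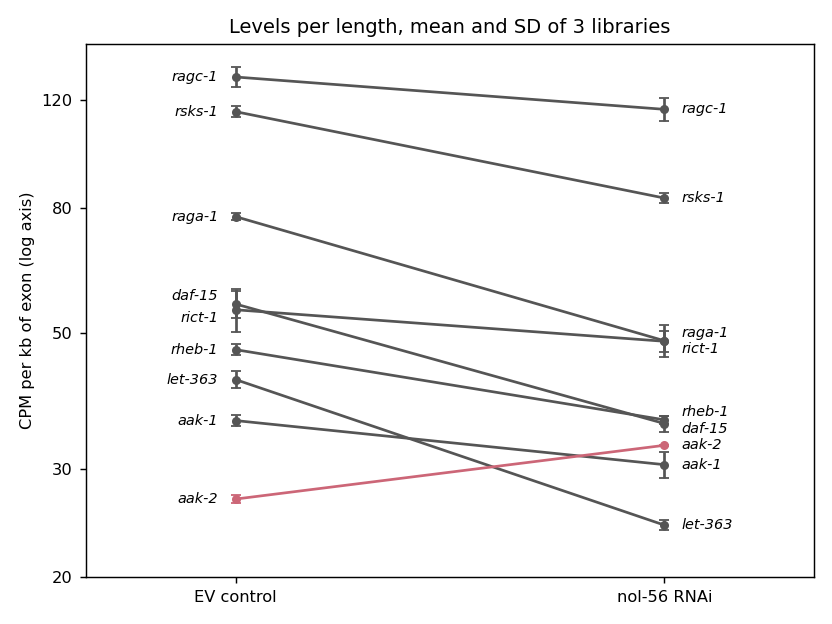
Level of each gene in CPM per kb of exon (log axis), as the mean and SD of 3 libraries, in the EV control and nol-56 RNAi groups joined by a line, with aak-2 in red. let-363 goes from 42.0 to 24.3 CPM per kb and becomes the lowest, while the lines of aak-1 and aak-2 cross.

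Other TOR complex subunits and upstream regulators were lower in 8 of 10 genes, higher in 1 and not called in 1. Over all genes, 40.8% were called lower and 47.2% higher. With upper-quartile factors 6 of the 10 were lower and 3 higher. The median log2 fold change of the 10 was −0.43 against 0.16 over all genes. sinh-1, which encodes the TORC2 subunit SIN1, fell from 53.2 ± 2.89 to 20.3 ± 0.496 CPM (−1.38), a larger fall than that of any of the 9 core genes. mlst-8, the gene for the shared subunit LST8, fell from 59.6 ± 2.01 to 39.2 ± 1.18 CPM (−0.60). clk-2, homologous to the TEL2 protein that in yeast and mammals helps TOR-family kinases to fold, fell from 100.0 ± 3.46 to 45.8 ± 0.624 CPM (−1.13).

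nprl-3 (−1.01) and nprl-2 (−0.44), homologs of subunits of a complex that in yeast and mammals turns the Rag GTPases off, fell, and so did the folliculin gene flcn-1 (−0.41) and the Ragulator gene lmtr-2 (−0.35), whose call was lost with upper-quartile factors (−0.10, adjusted p = 0.171). lmtr-5 fell by 0.14 on the log2 scale, and it was called higher under upper-quartile scaling (0.11, adjusted p = 0.0481); leaving out nol-56 RNAi library 1 or 3 ended the call (adjusted p = 0.0822 and 0.0553), as did library totals (−0.04, adjusted p = 0.435) and only genes above 5 CPM (0.01, adjusted p = 0.854). lmtr-3 stood at −0.10 (adjusted p = 0.114), and was called higher with upper-quartile factors (0.15, adjusted p = 0.0149) and lower with RLE factors (−0.24, adjusted p = 0.00127), by DESeq2 (−0.24, adjusted p = 0.00163) and without EV control library 3 (−0.17, adjusted p = 0.00614). sesn-1, which encodes sestrin, a restraint on TORC1 in mammals, rose from 41.2 ± 1.74 to 84.1 ± 3.10 CPM (1.03), the only call in that direction in this list.

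Of the substrates and downstream effectors of TOR, 10 of 19 genes were lower and 9 higher, beside 40.8% and 47.2% over all genes, with a median of −0.26. With upper-quartile factors 6 were lower and 9 higher, and with RLE factors 10 and 6. larp-1, an RNA-binding protein gene whose mammalian homolog controls messenger RNAs of the translation machinery, went from 956 ± 41.2 to 365.5 ± 12.8 CPM (−1.39), and rps-6, the gene for the S6 protein that the S6 kinase phosphorylates, from 1044 ± 15.5 to 567 ± 14.9 CPM (−0.88). The cap-binding protein genes ife-3 (−0.91), ife-1 (−0.75) and ife-4 (−0.40), the elongation factor gene eef-2 (−0.56) and the gene of its kinase, efk-1 (−0.53), fell too. The call on ife-4 was lost with upper-quartile factors (−0.15, adjusted p = 0.15). ife-5 (0.25) and ife-2 (0.12) rose, but neither was called with RLE factors (0.12 and −0.02, adjusted p = 0.153 and 0.791) or by DESeq2 (adjusted p = 0.286 and 0.827). The call on ife-2 was also lost without EV control library 1, 2 or 3 (adjusted p = 0.0587, 0.144 and 0.0732) or nol-56 RNAi library 1 (0.233), and the similarity of the cap-binding protein genes leaves the split of reads among them uncertain.

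Kinase and transcription factor genes made up most of the rest. The AGC kinase genes pkc-2, from 40.2 ± 1.49 to 86.0 ± 2.50 CPM (1.09), sgk-1, from 16.1 ± 0.621 to 30.9 ± 0.798 CPM (0.94), and akt-2 (0.57) rose, while akt-1 (−0.28) fell. sgk-1 is the main known TORC2 effector in C. elegans. hlh-30, the gene of the TFEB homolog that drives autophagy and lysosome genes, rose from 134 ± 0.739 to 229 ± 10.3 CPM (0.77). sbp-1 (0.69), the SREBP lipid regulator gene, and pha-4 (0.58), a forkhead factor gene required for long life under low TOR, rose, and skn-1 (−0.30) and the lipin gene lpin-1 (−0.26) fell. With upper-quartile factors the calls on akt-1 (adjusted p = 0.5), skn-1 (0.212) and lpin-1 (0.751) were lost. unc-51, the gene of the autophagy-starting kinase, rose by 0.11 (adjusted p = 0.0157, edgeR), a call lost with RLE factors (−0.03, adjusted p = 0.577), by DESeq2 (adjusted p = 0.627) and without EV control library 3 (0.07, adjusted p = 0.128).

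AMPK is a trimer of α, β and γ subunits. Of 13 β, γ and upstream kinase genes, 6 rose, 5 fell and 2 were not called, shares near the 47.2% higher and 40.8% lower over all genes, with a median of 0.09 beside 0.16. The β subunit gene aakb-1 rose from 17.4 ± 1.09 to 30.5 ± 0.398 CPM (0.81) and aakb-2 fell from 95.6 ± 4.01 to 76.5 ± 2.31 CPM (−0.32), a call lost with upper-quartile factors (−0.07, adjusted p = 0.106). Per length, the share of aakb-1 among β transcripts went from 24.0 ± 1.83% to 40.9 ± 1.05%.

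The γ subunits carry the sites that bind AMP. aakg-3 (1.44), aakg-4 (0.80), aakg-2 (0.29) and aakg-1 (0.25) rose, though aakg-2 was not called by DESeq2 (adjusted p = 0.0707). aakg-5 stood at 0.09 (adjusted p = 0.134) and was called higher with upper-quartile factors (0.34, adjusted p = 8.13e-06), library totals (0.18, adjusted p = 0.00346), only genes above 5 CPM (0.24, adjusted p = 0.000662) and without EV control library 1 (0.17, adjusted p = 0.000679). With RLE factors it stood at −0.05 (adjusted p = 0.451). aakg-3 remained rare, going from 1.42 ± 0.275 to 3.87 ± 0.543 CPM, and aakg-5 and aakg-1 together held most γ transcripts per length in both groups, at 46.3% and 33.4% in the EV control and 41.6% and 33.6% in the RNAi libraries.

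Genes for the LKB1 complex, the main kinase upstream of AMPK, were lower in 4 of 5 cases, beside 40.8% of all genes. These 5 belong to the list of 13 in which 6 rose and 5 fell. par-4, the LKB1 gene, fell from 123 ± 8.51 to 95.3 ± 3.19 CPM (−0.37), strd-1, the gene of its STRAD partner, by 0.66 on the log2 scale, and the MO25 genes mop-25.3 and mop-25.2 by 1.20 and 0.76. mop-25.1 stood at −0.08 (adjusted p = 0.106) and was called higher with upper-quartile factors (0.17, adjusted p = 0.00105) and lower with RLE factors (−0.22, adjusted p = 0.000308), by DESeq2 (−0.22, adjusted p = 0.000246) and without EV control library 3 (−0.13, adjusted p = 0.0109). ckk-1, the gene of the calcium-dependent kinase that can also activate AMPK, rose from 4.51 ± 0.244 to 9.64 ± 0.521 CPM (1.10).

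Among 8 substrates and effectors of AMPK, 4 fell, 2 rose and 2 were not called, beside 40.8% lower and 47.2% higher over all genes. Their median was −0.19, beside 0.16 over all genes. With upper-quartile factors 3 of the 8 were lower and 4 higher. The fat lipase gene atgl-1 fell from 166 ± 6.47 to 97.0 ± 2.97 CPM (−0.78), the mitochondrial fusion and fission genes fzo-1 (−0.78) and drp-1 (−0.71) fell together, and hmgr-1 (−0.30), the HMG-CoA reductase gene, fell by less, a call lost with upper-quartile factors (−0.05, adjusted p = 0.199). crtc-1, the gene of the coactivator that AMPK holds inactive in C. elegans, rose from 26.3 ± 1.43 to 43.0 ± 0.538 CPM (0.71), and pod-2, the acetyl-CoA carboxylase gene, rose from 651 ± 14.7 to 796 ± 27.2 CPM (0.29). The CREB gene crh-1, whose product works with that of crtc-1, stood at 0.00 (adjusted p = 0.956) and daf-16, the FOXO gene, at −0.09 (adjusted p = 0.0746). With RLE factors crh-1 (−0.14) and daf-16 (−0.23) were called lower, and with upper-quartile factors crh-1 (0.25) and daf-16 (0.16) were called higher. crh-1 was also called higher with only genes above 5 CPM (0.15, adjusted p = 0.0199), and DESeq2 called daf-16 lower (−0.23) but not crh-1 (−0.14, adjusted p = 0.0714). Without EV control library 3, daf-16 was called lower (−0.15, adjusted p = 0.00278).

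**Figure D5:**
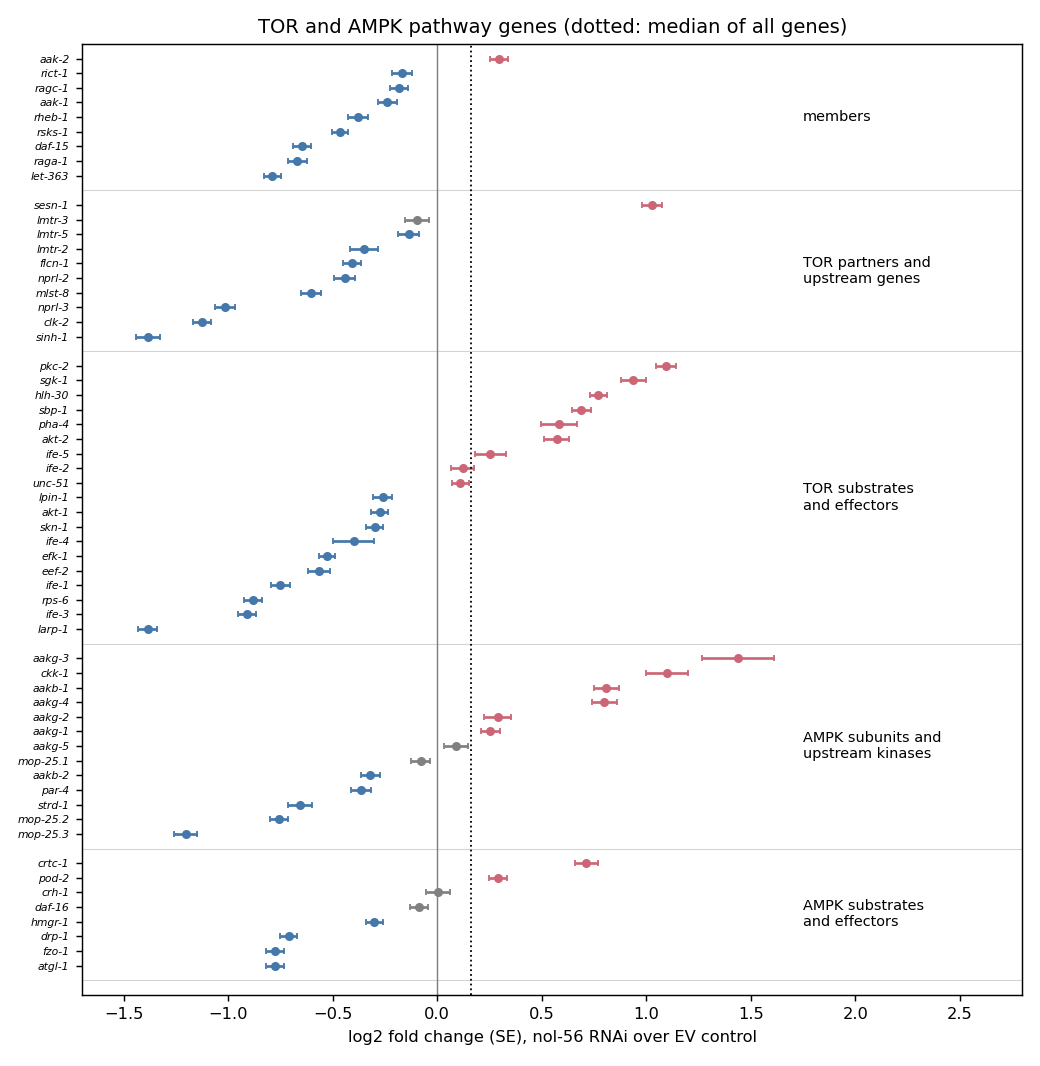
Log2 fold change with its standard error (horizontal axis) for the 9 core genes and 50 other genes of the TOR and AMPK pathways, in red where called higher, blue where called lower and grey where not called; the dotted line is the median of all genes, 0.16. Most TOR partners lie left of 0, with sesn-1 the exception at 1.03, and the other lists hold genes on both sides.

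Tissue markers moved in the same libraries, in which 40.8% of all genes were called lower and 47.2% higher. All 12 germline markers fell (median −1.12), with a summed level of 5034 to 5482 CPM in the EV control and 2620 to 2733 CPM in the RNAi libraries. Neuron markers were higher in 9 of 10 genes (445 to 473 against 870 to 885 CPM), muscle markers in 9 of 9 (3336 to 3621 against 6615 to 6622 CPM) and intestine markers in 8 of 8 (1894 to 2022 against 2846 to 2909 CPM). Epidermis markers were lower in 6 of 8 genes and higher in 2, with summed levels of 433 to 486 against 521 to 549 CPM. That sum rose through rol-6, which went from 169 to 364 CPM, while noah-1 went from 133 to 51.2 CPM. Sperm markers were near 0 in both groups, at 4.35 to 6.24 against 3.01 to 3.58 CPM in sum, with 3 lower, 1 higher and 4 too low to test. No marker was at 0 in all 6 libraries. In whole-worm RNA, fewer cells of a type and less RNA per cell cannot be told apart, and the part of tissue composition in the changes of the TOR and AMPK genes was not tested.

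Overlapping genes touch a few of the 9. Exons of aak-1 and of sma-2 on the opposite strand share 100 bases, those of aak-2 and mec-4 share 78, and daf-15 shares 107 bases with col-121. These neighbours were weak: sma-2 stood at 4.07 and 7.74 CPM in the EV control and RNAi libraries, mec-4 at 0.940 and 2.88 CPM, and col-121 at 7.57 and 2.81 CPM. rict-1 shares 37 bases with col-86 on its own strand, which stood at 0.571 and 0.125 CPM.

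The genes whose profiles lay closest to that of let-363 over the 6 libraries, by Euclidean distance of log2 CPM centred on each gene's mean among 8451 genes whose log2 CPM averaged 3 or more, were ZK973.1 (0.02), sec-31 (0.03) and nurf-1 (0.03), where the median gene lay at 0.75. Those closest to aak-2 were ham-2 (0.03), ZK177.8 (0.03) and istr-1 (0.04), with the median gene at 0.98. With 2 groups of 3 libraries, this distance reflects mainly the difference between the groups.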

How the data were processed

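For each gene in each library the authors deposited a raw read count and, for most genes, a normalized signal that equals this count over the library's size factor. Software in the submitters' processing notes comprises TopHat2 2.1.1, HTSeq 2.01, cutadapt 2.10 and DESeq2 1.36.0, listed without their roles, and the build WBcel235. Whether counting used strand is not stated. Of 46934 rows, 22416 hold counts.

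Counts were filtered with filterByExpr, scaled with TMM and fitted with edgeR 4.0.16 (R 4.3.3, limma 3.58.1) with the group as the only term, over all 14677 genes that passed. The filter kept at least 99.9% of each library's counts. Tests were two-sided, and a standard error is the absolute log2 fold change over the square root of the test's F statistic. The 9 genes had 917 to 11976 reads per library, a counting error of 3.30% to 0.914%, which covers counting error only. Positions and exon lengths came from Ensembl release 115 of WBcel235, matched by gene identifier. The scripts were tested on simulated data. Few genes were changed there, as many up as down, so that test cannot check the scaling where most genes change. Alternatives were other scalings and filters, DESeq2 1.42.0, limma-voom, the replicate number as a block and each library left out.

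The 9 genes and all lists were chosen with earlier results of these data known. All 9 are named whatever their values, as are members of the 4 pathway lists. epg-1 and the marker name opt-2 had no match. No sequences are shown.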

Additional observations from a re-analysis of the deposited data

How the results depend on the processing

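With upper-quartile factors 5 of the 9 genes were called lower instead of 8, and the median log2 fold change of the 9 was −0.13. That median was −0.52 with RLE factors and with DESeq2, −0.29 with library totals and −0.23 with only genes above 5 CPM. Upper-quartile factors turned rict-1 (0.0789), ragc-1 (0.0655), aak-1 (0.0073), lmtr-3 (0.15), lmtr-5 (0.11), mop-25.1 (0.17) and daf-16 (0.16) positive, and the same factors gave 3 higher TOR partners, 6 lower TOR effectors and 4 higher AMPK effectors. RLE factors and DESeq2 turned unc-51 (−0.0275 with each) and ife-2 (−0.0159 and −0.0163) negative. They also turned crh-1 (−0.14 with each, called with RLE factors alone) and aakg-5 (−0.0496 and −0.0513, called with neither) negative, and lmtr-5 stood at 0.0099 with only genes above 5 CPM, a setting that tested fewer genes and called 4508 of them higher. The summed level of aak-1 and aak-2, RNAi minus control, was 0.516 CPM per kb with TMM, −5.53 with RLE factors, 4.62 with library totals and 11.4 with upper-quartile factors, alternatives chosen after seeing the data. The cause of the other differences was not tested. let-363, daf-15, raga-1, rsks-1 and rheb-1 stayed lower and aak-2 higher in every setting.

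Leaving out each library in turn left 8 of the 9 genes lower and 1 higher each time, with 5933 to 6056 of all genes lower and 6742 to 6937 higher. With the replicate number as a block, 5964 were lower and 6893 higher, against 5990 and 6927, and of the 9 genes and the 50 other pathway genes only ife-2 lost its call (0.12, adjusted p = 0.0531). Same-numbered libraries did not deviate together over all tested genes (correlations of −0.04, −0.01 and 0.00). No pairing by number was thus seen, but an effect shared by few genes would not show in these correlations. No library correlated best with the library of its own number.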

Other observations

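aak-2 is the only one of the 9 genes on the X chromosome. Chosen for a look after its rise was seen, genes on X as a class were called higher in 66.7% of 2195 tested and lower in 19.8%, with a median log2 fold change of 0.75, and autosomal genes were higher in 43.8% of 12468 and lower in 44.5%, with a median of 0.01. The log2 fold change of aak-2, 0.29, lay below the X median and above the autosomal median.

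By level per length, the 9 genes stood between the 65.2th percentile (aak-2) and the 94.2th percentile (ragc-1) of all tested genes in the EV control. let-363 went from the 74.3th to the 66.6th percentile in the RNAi libraries and aak-2 from the 65.2th to the 73.6th.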
